A study of Mus musculus with 12 samples.

Results

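GPX4 and the coenzyme Q (CoQ), tetrahydrobiopterin (BH4) and vitamin K systems were examined as 10 genes: Gpx4, Secisbp2, Sephs2, Aifm2, Dhodh, Gch1, Coq2, Pdss2, Vkorc1l1 and Stard7. They were taken by symbol, all 10 were found among the 24421 symbols of the count table, and all 10 were among the 13281 genes tested. The RNA was from the mouse lung adenocarcinoma line KP, of genotype KrasLSL-G12D/+; Trp53flox/flox, which all groups shared. Cells carried a control guide RNA (sgCTRL) or, for CRISPR/Cas9 knockout, a Bach1 guide (sgBACH1), and they were transfected 48 hours earlier with a control siRNA, siCTRL, or with siFEM1B, which targets Fem1b. The 4 groups, sgCTRL_siCTRL, sgBACH1_siCTRL, sgCTRL_siFEM1B and sgBACH1_siFEM1B, had 3 libraries each, called biological replicates in the design text. A single control line and a single knockout line are named, and the labels do not say whether they are clones or pools. A difference between genotypes therefore cannot be told apart from a difference between these lines.

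Ferroptosis is cell death by iron-dependent peroxidation of membrane lipids. GPX4, a selenium enzyme, reduces lipid hydroperoxides, and its selenocysteine is inserted at a stop codon by a dedicated machinery that includes SECISBP2 and SEPHS2. In parallel, reduced CoQ, BH4 and reduced vitamin K trap lipid radicals in membranes. BACH1 is a heme-binding transcriptional repressor of antioxidant and iron genes, and FEM1B brings substrates to the CUL2 ubiquitin ligase. The genes of this defence were read here under Bach1 knockout and FEM1B siRNA, alone and together.

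The libraries held 16539168 to 22196999 counts. Levels are given as CPM, the count relative to the TMM-scaled library total. A gene was called when edgeR's quasi-likelihood test gave a Benjamini-Hochberg adjusted p under 0.05 over all genes tested, and all adjusted p-values below are from that test with n = 3 libraries per group unless another tool is named. Fem1b was at 157 to 167 CPM in sgCTRL_siCTRL and 43.0 to 57.9 CPM in sgCTRL_siFEM1B, and at 136 to 141 and 46.2 to 54.4 CPM in the knockout line. Bach1 was at 31.4 ± 2.04 CPM (SD) in sgCTRL_siCTRL and 29.5 ± 1.72 CPM in sgBACH1_siCTRL, a transcript level that does not check the CRISPR lesion. Hmox1, a known target of BACH1 repression, was at 235 ± 28.2 CPM in the former and 1090 ± 13.8 CPM in the latter. With FEM1B siRNA Hmox1 was at 189 ± 49.6 CPM in sgCTRL_siFEM1B and 606 ± 175 CPM in sgBACH1_siFEM1B. Bach1 was at 41.3 ± 3.25 and 39.9 ± 0.601 CPM in these groups. Epithelial markers (7 in the table) summed to 6660 to 7760 CPM in every library through keratins and Cdh1, with Epcam at 1.53 CPM or less on average in each group. Alveolar type 2 markers (6 in the table) summed to 114 to 136 CPM, nearly all of it Abca3, with Lamp3 at 0.939 to 1.42 CPM on average in the 4 groups, Sftpb and Sftpc at 0.341 CPM or less, and Nkx2-1 and Sftpa1 at 0 in every library. Markers of leukocytes summed to 21.2 to 30.3 CPM in sgCTRL_siFEM1B and to 5.49 to 11.2 CPM in the other groups, mostly Cd68; 6 of these 7 were too low to test, and 3 were at 0 in each group. Fibroblast markers summed to at least 23.2 CPM in sgCTRL_siCTRL and to 18.3 to 21.6 CPM in sgCTRL_siFEM1B. In knockout cells they summed to 8.58 to 11.2 CPM. Most of this was Col1a1, at 22.5 CPM on average in sgCTRL_siCTRL and 8.39 CPM in sgBACH1_siCTRL. Dcn and Lum, too low to test, were at 0 in knockout cells and at 0.163 CPM or less on average in control-guide cells. Pdgfra went the other way, at 0.08 CPM in sgCTRL_siCTRL and 0.568 CPM in sgBACH1_siCTRL. Endothelial markers summed to at most 2.14 CPM. The part of other cells in the results was not tested.

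The members differed widely in level. Per kilobase of exon (the union of exons in GENCODE M21), mean levels in sgCTRL_siCTRL were 33.5 CPM for Sephs2, 25.7 for Gpx4, 21.6 for Stard7, 14.9 for Coq2, 11.8 for Vkorc1l1 and 9.74 for Aifm2. They were lower for Dhodh (3.92), Secisbp2 (2.89), Pdss2 (2.45) and Gch1 (0.541). Gch1 rested on 50 to 123 counts per library and Stard7 on 1720 to 2863, and Gch1 had the widest SEs of the 10, 0.21 to 0.22 in comparisons of 2 groups.

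**Figure D1:**
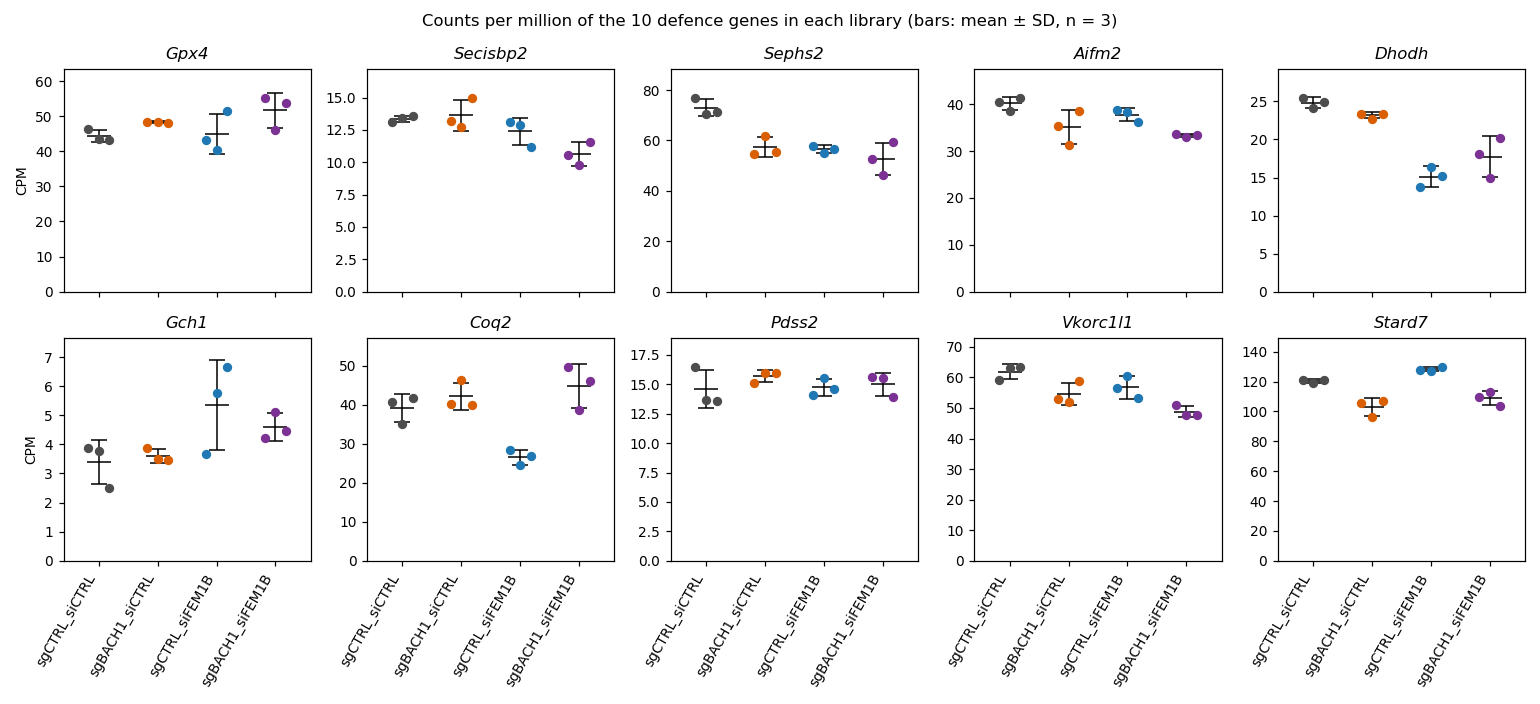
Points are CPM of each gene in each of the 12 libraries, on an axis from 0 for each gene; bars are the mean ± SD of 3 libraries per group. Coq2 in the 3 sgCTRL_siFEM1B libraries (24.5 to 28.4 CPM) lies below every other library, while Pdss2 stays between 13.6 and 16.5 CPM.

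Promoter sequences are shown for 4 members: Coq2 and Sephs2, which fell with FEM1B siRNA in control-guide cells, Secisbp2, whose window shares a motif with that of Sephs2, and Stard7, the 1 member with an antioxidant response element core. Of the 10 members, 9 matched an entry in the RefSeq promoter table (GRCm38.p6), and Dhodh did not. Each sequence gives the 250 bases before the start site, 5′ to 3′ on the gene's strand, with motif matches in capitals. The motifs searched on both strands, in windows of 250 bases before to 50 bases after the start, were TGACNNNGC (the core of the antioxidant response element bound by NRF2 and BACH1 with small MAF proteins), TGANTCA (AP-1 type) and CACGTG (E-box).
Coq2 promoter, chr5:100674257-100674506, - strand: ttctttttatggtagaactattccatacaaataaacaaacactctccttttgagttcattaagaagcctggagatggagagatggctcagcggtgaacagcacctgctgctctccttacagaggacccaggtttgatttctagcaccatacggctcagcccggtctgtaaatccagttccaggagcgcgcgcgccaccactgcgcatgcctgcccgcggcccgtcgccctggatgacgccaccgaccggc
Sephs2 promoter, chr7:127274060-127274309, - strand: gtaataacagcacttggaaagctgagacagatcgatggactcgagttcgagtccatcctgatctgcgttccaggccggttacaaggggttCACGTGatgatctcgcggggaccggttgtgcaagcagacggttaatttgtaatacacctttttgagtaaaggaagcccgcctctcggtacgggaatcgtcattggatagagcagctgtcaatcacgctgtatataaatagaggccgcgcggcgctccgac
Secisbp2 promoter, chr13:51651458-51651707, + strand: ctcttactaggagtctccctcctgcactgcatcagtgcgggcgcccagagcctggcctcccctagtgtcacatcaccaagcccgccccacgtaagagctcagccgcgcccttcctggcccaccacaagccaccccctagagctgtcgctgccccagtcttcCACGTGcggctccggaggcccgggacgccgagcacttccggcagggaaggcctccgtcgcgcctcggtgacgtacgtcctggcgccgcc
Stard7 promoter, chr2:127269979-127270228, + strand: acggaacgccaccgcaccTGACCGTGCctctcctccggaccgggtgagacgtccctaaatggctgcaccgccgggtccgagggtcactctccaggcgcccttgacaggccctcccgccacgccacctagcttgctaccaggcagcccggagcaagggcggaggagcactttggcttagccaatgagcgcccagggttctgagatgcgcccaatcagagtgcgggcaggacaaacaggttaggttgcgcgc
CACGTG lay at -160 from the start of Sephs2 and at -89 in Secisbp2, and TGACCGTGC at -232 in Stard7. The windows of Coq2, Gpx4 (4 start sites), Aifm2, Gch1, Pdss2 and Vkorc1l1 held none of these letters. Of all 32851 promoter windows, 7.15% held CACGTG, 12.4% held TGACNNNGC and 7.81% held TGANTCA. A match is a description of the letters and not of binding.

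Gpx4 (chromosome 10, 80047166 to 80056439, mm10) encodes the lipid hydroperoxide reductase at the centre of this defence. It was at 46.3, 43.5 and 43.1 CPM in sgCTRL_siCTRL and at 43.2, 40.4 and 51.4 CPM in sgCTRL_siFEM1B. Levels were 48.5, 48.4 and 48.0 CPM in sgBACH1_siCTRL and 55.3, 46.0 and 53.9 CPM in sgBACH1_siFEM1B. The siRNA groups overlapped within each genotype, and all knockout libraries with control siRNA were above the matching control-guide libraries. FEM1B siRNA gave a log2 fold change of 0.02 ± 0.08 (SE) in control-guide cells (adjusted p = 0.871) and 0.10 ± 0.08 in the knockout line (adjusted p = 0.366). Knockout against control was 0.12 ± 0.08 under control siRNA (adjusted p = 0.229), and a fit to those 6 libraries alone gave 0.15 (adjusted p = 0.0473). Under FEM1B siRNA it was 0.20 ± 0.08 and just called (adjusted p = 0.0478). Genes of chromosome 10 had a median shift of 0.13 and 0.11 between the lines under the 2 siRNAs, and with chromosome medians removed Gpx4 was at 0.09 (adjusted p = 0.392) under FEM1B siRNA and at 0.00 (adjusted p = 0.982) under control siRNA. That call also ended without any single library other than replicate 3 of sgCTRL_siFEM1B or replicate 2 of sgBACH1_siFEM1B (adjusted p = 0.0518 to 0.239, lowest value 0.13 without replicate 2 of sgCTRL_siFEM1B). It ended in 4 further settings, namely DESeq2 size factors, library totals, the groups compared alone and the DESeq2 test (adjusted p = 0.0567 to 0.102). Gpx4 counts are uncertain, because the processed pseudogene Gpx4-ps2 matches it at 99.7% over 733 aligned bases and the handling of reads with several matches was not given in the sources used. The mitochondrial, cytosolic and nuclear forms of GPX4 share 1 gene count.

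Sephs2 (chromosome 7, 127271879 to 127274059) encodes the selenophosphate synthetase that makes the selenium donor for selenocysteine and is itself a selenoprotein. It was at 77.0, 70.7 and 71.3 CPM in sgCTRL_siCTRL, at 54.6, 61.9 and 55.6 CPM in sgBACH1_siCTRL, at 58.0, 54.9 and 56.5 CPM in sgCTRL_siFEM1B and at 52.7, 46.4 and 59.2 CPM in sgBACH1_siFEM1B. All 3 unperturbed libraries lay above the other 9. Sephs2 fell by 0.35 ± 0.08 on the log2 scale with knockout under control siRNA (adjusted p = 0.000746) and by 0.37 ± 0.08 with FEM1B siRNA in control-guide cells (adjusted p = 0.000532). On top of knockout, FEM1B siRNA gave −0.12 ± 0.08 (adjusted p = 0.222). The difference between the siRNA effects in the 2 genotypes was 0.25 ± 0.11 (adjusted p = 0.174), and it was called without replicate 2 of sgBACH1_siFEM1B (0.33, adjusted p = 0.0296). Without replicate 3 of that group the siRNA effect in knockout cells was called (−0.21, adjusted p = 0.0448). Part of Sephs2 (792 bases of exon) lies opposite an annotated transcript, Gm44729, on the other strand. Libraries were stranded, but the sources used here do not give the counting's strand setting.

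Secisbp2 (chromosome 13, 51651682 to 51684044) encodes the protein that binds the SECIS element of selenoprotein mRNAs. It was at 13.1, 13.4 and 13.6 CPM in sgCTRL_siCTRL, 13.2, 12.7 and 15.0 CPM in sgBACH1_siCTRL, 13.1, 12.9 and 11.2 CPM in sgCTRL_siFEM1B and 10.6, 9.77 and 11.6 CPM in sgBACH1_siFEM1B. The doubly perturbed libraries were below all libraries with control siRNA. In knockout cells Secisbp2 fell by 0.36 ± 0.11 with FEM1B siRNA (adjusted p = 0.0124), which was not called without replicate 3 of sgBACH1_siCTRL (−0.28, adjusted p = 0.0824) or replicate 2 of sgBACH1_siFEM1B (−0.30, adjusted p = 0.0532). In control-guide cells the change was −0.11 ± 0.11 (adjusted p = 0.43), and the difference between genotypes was −0.25 ± 0.15 (adjusted p = 0.339). Knockout under FEM1B siRNA gave −0.22 ± 0.11 (adjusted p = 0.0972), called without replicate 3 of sgCTRL_siFEM1B (−0.30, adjusted p = 0.0372).

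Aifm2 (chromosome 10, 61715263 to 61739260) encodes FSP1, the oxidoreductase that regenerates reduced CoQ and vitamin K at membranes. It was at 40.5, 38.6 and 41.4 CPM in sgCTRL_siCTRL, 35.4, 31.3 and 38.6 CPM in sgBACH1_siCTRL, 38.7, 38.4 and 36.2 CPM in sgCTRL_siFEM1B and 33.7, 32.9 and 33.4 CPM in sgBACH1_siFEM1B. Knockout libraries were below control-guide libraries under each siRNA, by at most a small margin. The log2 fold change of knockout was −0.19 ± 0.07 under control siRNA (adjusted p = 0.0359) and −0.18 ± 0.08 under FEM1B siRNA (adjusted p = 0.0487). Both calls were near the threshold. The former ended without replicate 1 or 3 of sgCTRL_siCTRL or replicate 1 or 2 of sgBACH1_siCTRL (adjusted p = 0.0714 to 0.214, and −0.12 without replicate 2 of sgBACH1_siCTRL), in the fit to those groups alone (adjusted p = 0.0593) and in the DESeq2 test (adjusted p = 0.0542). The latter ended without any single library other than replicates 2 and 3 of sgBACH1_siCTRL and replicate 3 of sgCTRL_siFEM1B (adjusted p = 0.0536 to 0.119), and with no filter, a replicate block or the groups compared alone (adjusted p = 0.0561 to 0.0631). With chromosome medians removed the values were −0.32 (adjusted p = 0.00162) and −0.29 (adjusted p = 0.0031). FEM1B siRNA gave −0.09 ± 0.07 in control-guide cells (adjusted p = 0.361) and −0.07 ± 0.08 in the knockout line (adjusted p = 0.458). H2afy2, which overlaps 233 bases of Aifm2 exon from the other strand, was at 0.947 to 3.08 CPM over the 12 libraries.

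Dhodh (chromosome 8, 109593244 to 109608699) encodes dihydroorotate dehydrogenase, a mitochondrial enzyme of pyrimidine synthesis that passes electrons to CoQ. It was at 25.5, 24.1 and 24.9 CPM in sgCTRL_siCTRL and 13.7, 16.4 and 15.2 CPM in sgCTRL_siFEM1B. In the knockout line it was at 23.4, 22.7 and 23.4 CPM with control siRNA and 18.1, 14.9 and 20.2 CPM with FEM1B siRNA. Every library with FEM1B siRNA was below every library with control siRNA. Dhodh fell by 0.72 ± 0.10 in control-guide cells (adjusted p = 9.15e-06) and by 0.39 ± 0.10 in the knockout line (adjusted p = 0.0038), and both falls were called in all alternatives run. The difference between these effects was 0.33 ± 0.14 (adjusted p = 0.169), called without replicate 2 of sgBACH1_siFEM1B (0.44, adjusted p = 0.0297), so a smaller fall in knockout cells was not shown by the fit to all libraries. Knockout itself gave −0.10 ± 0.10 under control siRNA (adjusted p = 0.42) and 0.23 ± 0.10 under FEM1B siRNA (adjusted p = 0.0661). The latter was called without replicate 2 of sgCTRL_siFEM1B (0.30, adjusted p = 0.0406) or replicate 2 of sgBACH1_siFEM1B (0.34, adjusted p = 0.00694), and with chromosome medians removed (0.27, adjusted p = 0.0335).

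Coq2 (chromosome 5, 100654723 to 100674288) encodes the prenyltransferase that attaches the isoprenoid tail to the CoQ ring. Its promoter window, printed above, held none of the 3 motifs. Coq2 was at 40.7, 35.2 and 41.8 CPM in sgCTRL_siCTRL and 28.4, 24.5 and 26.8 CPM in sgCTRL_siFEM1B. In the knockout line it was at 40.2, 46.3 and 40.0 CPM with control siRNA and 49.8, 38.7 and 46.1 CPM with FEM1B siRNA. The control-guide libraries with FEM1B siRNA were below the other 9 libraries, which overlapped each other. Coq2 fell by 0.56 ± 0.10 with FEM1B siRNA in control-guide cells (adjusted p = 9.24e-05) and its level changed by −32.2%. In knockout cells the siRNA gave 0.09 ± 0.09 (adjusted p = 0.461). The difference between these effects was itself called, at 0.65 ± 0.13 (adjusted p = 0.00815), where 6.08% of all genes tested were called (3.48% higher, 2.60% lower). The value lay between 0.57 and 0.75 over all alternatives, each of which kept the call (adjusted p = 2.96e-06 to 0.0355). Of the 10 members Coq2 was the 1 called in this contrast; 3 members had an unadjusted p under 0.05, and the DESeq2 test also called 1. Knockout against control was 0.76 ± 0.10 under FEM1B siRNA (adjusted p = 1.69e-06) and 0.11 ± 0.09 under control siRNA (adjusted p = 0.363). The processed pseudogene Gm6728 matches Coq2 at 96.5% over 1006 aligned bases, and the antisense transcript Gm15777 lies opposite 459 bases of its exons. These were not analysed here, and their part in the counts was not tested.

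**Figure D2:**
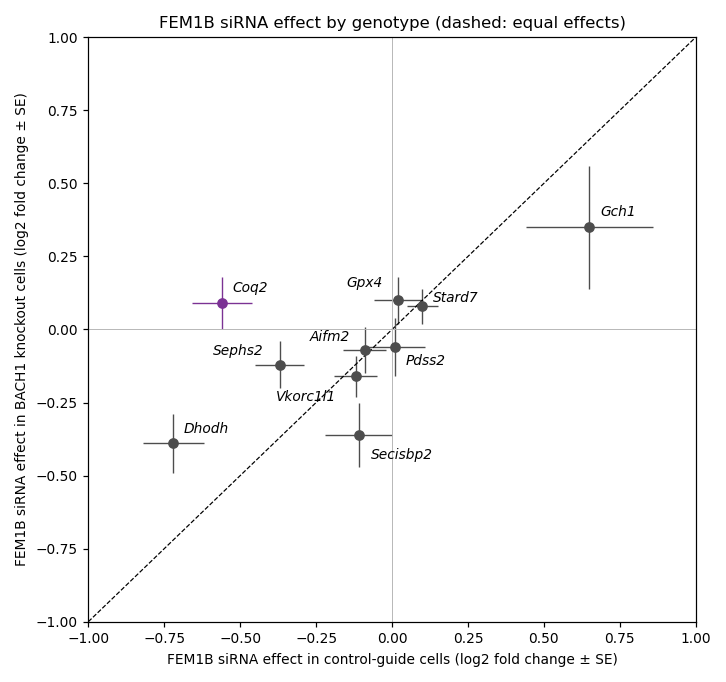
Each point is 1 of the 10 genes, with the log2 fold change of FEM1B siRNA in control-guide cells on the x axis and in BACH1 knockout cells on the y axis; lines are SE and the dashed line marks equal effects. Coq2 lies at −0.56 and 0.09, off the dashed line, and Dhodh at −0.72 and −0.39, below 0 on both axes.

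Pdss2 (chromosome 10, 43218248 to 43464882) encodes a subunit of the synthase that builds the isoprenoid tail used by COQ2. It was at 13.6 to 16.5 CPM over the 12 libraries, and groups overlapped in all 4 comparisons of a single factor. Its log2 fold changes were 0.10 ± 0.10 and 0.03 ± 0.10 for knockout under control and FEM1B siRNA, and 0.01 ± 0.10 and −0.06 ± 0.10 for FEM1B siRNA in control-guide and knockout cells (adjusted p = 0.415 to 0.964). The 2 CoQ synthesis members therefore had different values under the same siRNA, −0.56 for Coq2 and 0.01 for Pdss2 in control-guide cells, and the difference between the genes was not tested.

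Gch1 (chromosome 14, 47153895 to 47189413) encodes GTP cyclohydrolase, the entry enzyme of BH4 synthesis. It was the least abundant member, at 3.86, 3.77 and 2.51 CPM in sgCTRL_siCTRL and 3.66, 5.75 and 6.67 CPM in sgCTRL_siFEM1B. In the knockout line it was at 3.89, 3.49 and 3.46 CPM with control siRNA and 4.22, 5.13 and 4.46 CPM with FEM1B siRNA. Groups overlapped in control-guide cells, where 1 library with FEM1B siRNA was within the control range, and did not overlap in knockout cells. Gch1 rose by 0.65 ± 0.21 in control-guide cells (adjusted p = 0.0159). That call ended without replicate 3 of sgCTRL_siCTRL (0.48, adjusted p = 0.0944), replicate 2 of sgCTRL_siFEM1B (0.59, adjusted p = 0.057) or replicate 3 of sgCTRL_siFEM1B (0.48, adjusted p = 0.0894). In knockout cells the value was 0.35 ± 0.21 (adjusted p = 0.205), with a difference between genotypes of −0.30 ± 0.30 (adjusted p = 0.589). Knockout gave 0.09 ± 0.22 (adjusted p = 0.755) and −0.21 ± 0.21 (adjusted p = 0.404) under the 2 siRNAs, while genes of chromosome 14 had a median shift of 0.24 under each.

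Vkorc1l1 (chromosome 5, 129942109 to 129986692) encodes a vitamin K epoxide reductase of the endoplasmic reticulum that yields reduced vitamin K. It was at 59.0, 63.2 and 63.5 CPM in sgCTRL_siCTRL, 53.0, 52.0 and 58.7 CPM in sgBACH1_siCTRL, 56.6, 60.6 and 53.2 CPM in sgCTRL_siFEM1B and 50.9, 47.8 and 47.7 CPM in sgBACH1_siFEM1B. Knockout libraries were below control-guide libraries under each siRNA, and the doubly perturbed libraries were the lowest of the 12. It fell with knockout by 0.18 ± 0.07 under control siRNA (adjusted p = 0.0302) and by 0.22 ± 0.07 under FEM1B siRNA (adjusted p = 0.0104). The former call ended without replicate 2 or 3 of sgCTRL_siCTRL or replicate 1 or 2 of sgBACH1_siCTRL (adjusted p = 0.0898 to 0.12) and with chromosome medians removed (−0.16, adjusted p = 0.0629). The latter ended without replicate 2 of sgCTRL_siFEM1B (−0.17, adjusted p = 0.0653). FEM1B siRNA gave −0.12 ± 0.07 in control-guide cells (adjusted p = 0.145) and −0.16 ± 0.07 in the knockout line (adjusted p = 0.0656). The latter was called in a fit to those 6 libraries (−0.18, adjusted p = 0.0442), without replicate 2 of sgBACH1_siCTRL (−0.20, adjusted p = 0.0498) and without replicate 3 of sgCTRL_siFEM1B (−0.18, adjusted p = 0.0332).

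Stard7 (chromosome 2, 127270202 to 127298935) encodes a lipid transfer protein that carries phosphatidylcholine to mitochondria and, in its cytosolic form, CoQ to the plasma membrane. It was at 121, 119 and 121 CPM in sgCTRL_siCTRL, 106, 96.0 and 107 CPM in sgBACH1_siCTRL, 128, 127 and 130 CPM in sgCTRL_siFEM1B and 110, 113 and 104 CPM in sgBACH1_siFEM1B. All knockout libraries were below all control-guide libraries. Stard7 fell with knockout by 0.22 ± 0.05 under control siRNA (adjusted p = 0.00223) and by 0.24 ± 0.05 under FEM1B siRNA (adjusted p = 0.00102). Genes of chromosome 2 had a median shift of −0.11 and −0.10 between the lines. With chromosome medians removed, Stard7 was at −0.11 (adjusted p = 0.12) and −0.14 (adjusted p = 0.0356). FEM1B siRNA gave 0.10 ± 0.05 in control-guide cells (adjusted p = 0.161) and 0.08 ± 0.06 in the knockout line (adjusted p = 0.278), although the libraries of the former pair of groups did not overlap.

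Counted over the 10 members, knockout under control siRNA lowered 4, Sephs2, Aifm2, Vkorc1l1 and Stard7, and the other 6 were not called. Of all genes tested, 50.5% were called in that comparison, 24.2% higher and 26.3% lower. Under FEM1B siRNA the knockout comparison called 5 members where 54.6% of all genes were called (28.2% higher, 26.4% lower): Coq2 and Gpx4 higher, and Aifm2, Vkorc1l1 and Stard7 lower. FEM1B siRNA in control-guide cells called 4 members, Gch1 higher and Sephs2, Dhodh and Coq2 lower, where 45.0% of all genes were called (22.1% higher, 22.9% lower). In knockout cells it called 2, Dhodh and Secisbp2, both lower, where 41.7% were called (21.9% higher, 19.8% lower). The median log2 fold change of the members was −0.03, −0.14, −0.10 and −0.07 in these 4 comparisons, against −0.02, 0.01, 0.00 and 0.02 over all genes. As shares of 10, these counts were all below the share of all genes called. The count under control siRNA fell to 2 without replicate 3 of sgCTRL_siCTRL or replicate 1 or 2 of sgBACH1_siCTRL, and to 2 with chromosome medians removed. The count under FEM1B siRNA fell to 3 without any 1 of the 3 sgCTRL_siCTRL libraries, replicate 1 of sgBACH1_siCTRL, replicate 1 or 2 of sgCTRL_siFEM1B, or replicate 1 or 3 of sgBACH1_siFEM1B. The count for FEM1B siRNA in knockout cells fell to 1 without replicate 3 of sgBACH1_siCTRL or replicate 2 of sgBACH1_siFEM1B, and the 6-library fit of that comparison gave 3.

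**Figure D3:**
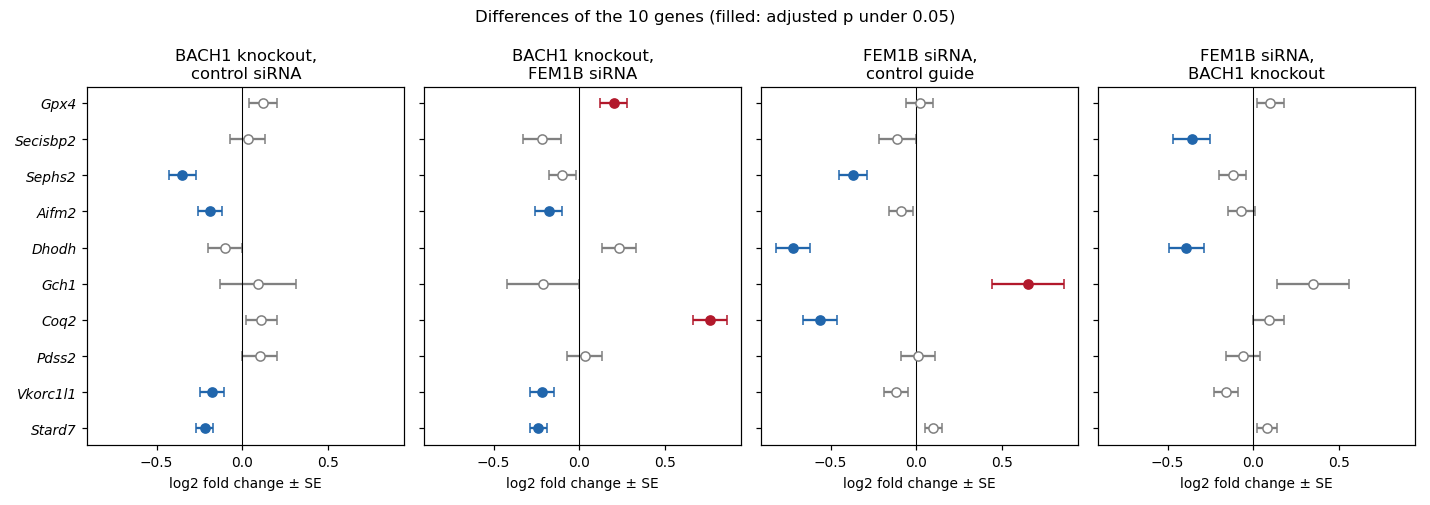
Log2 fold change with SE of each gene in the 4 comparisons of a single factor; filled points passed adjusted p under 0.05 and open points did not. Dhodh is lower in both FEM1B siRNA panels (−0.72 and −0.39), and Coq2 is at −0.56 in control-guide cells and at 0.76 for knockout under FEM1B siRNA.

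Bach1 knockout with FEM1B siRNA (sgBACH1_siFEM1B) was compared with neither (sgCTRL_siCTRL). Of the members 6 were called lower and 1 higher, where 64.8% of all genes were called (32.5% higher, 32.3% lower). Dhodh was at −0.49 ± 0.10 (adjusted p = 0.000251), Sephs2 at −0.47 ± 0.08 (adjusted p = 2.32e-05), Vkorc1l1 at −0.34 ± 0.07 (adjusted p = 0.000193) and Aifm2 at −0.27 ± 0.08 (adjusted p = 0.00398), and these 4 calls held in all alternatives run. Secisbp2 was at −0.33 ± 0.11 (adjusted p = 0.0124), not called without replicate 2 of sgBACH1_siFEM1B (−0.27, adjusted p = 0.0564). Stard7 was at −0.14 ± 0.05 (adjusted p = 0.0274) and Gpx4 at 0.22 ± 0.08 (adjusted p = 0.0256). With chromosome medians removed these were −0.22 (adjusted p = 0.0873), −0.03 (adjusted p = 0.622) and 0.11 (adjusted p = 0.266). The Stard7 call also ended without replicate 1 or 3 of sgCTRL_siCTRL or replicate 1 or 3 of sgBACH1_siFEM1B (adjusted p = 0.0522 to 0.124), and the Gpx4 call without replicate 2 or 3 of sgCTRL_siCTRL or replicate 1 or 3 of sgBACH1_siFEM1B (adjusted p = 0.0713 to 0.123). Coq2 was at 0.20 ± 0.09 (adjusted p = 0.072), called without replicate 2 of sgBACH1_siFEM1B (0.29, adjusted p = 0.00773) with chromosome medians removed (0.23, adjusted p = 0.0393) and with no filter (0.19, adjusted p = 0.0469). Gch1 was at 0.44 ± 0.21 (adjusted p = 0.0801), called without replicate 1 of sgCTRL_siFEM1B (0.44, adjusted p = 0.042). This comparison shares its control libraries with those of knockout and of siRNA alone.

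The order of group means differed between members. For Sephs2 it ran from sgBACH1_siFEM1B through sgCTRL_siFEM1B and sgBACH1_siCTRL to sgCTRL_siCTRL, and of these neighbours the last 2 differed (adjusted p = 0.000746). The lowest group for Coq2 and for Dhodh was sgCTRL_siFEM1B. It differed from its neighbour sgCTRL_siCTRL for Coq2 (adjusted p = 9.24e-05). For Dhodh it did not pass against its neighbour sgBACH1_siFEM1B (adjusted p = 0.0661), which differed from the next group, sgBACH1_siCTRL (adjusted p = 0.0038). For Stard7 the step from sgBACH1_siFEM1B up to sgCTRL_siCTRL was called (adjusted p = 0.0274), with the exceptions given above. No neighbouring step was called for Gpx4, Secisbp2, Aifm2, Gch1, Pdss2 or Vkorc1l1. The remaining pair of groups, knockout alone against FEM1B siRNA alone, called Dhodh (0.62 ± 0.10, adjusted p = 2.36e-05) and Coq2 (0.67 ± 0.10, adjusted p = 5.9e-06) higher in the former, and Gch1 and Stard7 lower, where 59.3% of all genes were called (30.3% higher, 29.0% lower). The Gch1 value there was −0.56 ± 0.21 (adjusted p = 0.0269) and not called without replicate 2 or 3 of sgBACH1_siCTRL or of sgCTRL_siFEM1B (adjusted p = 0.068 to 0.152), and that of Stard7 was −0.32 ± 0.05 (adjusted p = 4.92e-05). Gpx4 was called there without replicate 3 of sgCTRL_siFEM1B (0.21, adjusted p = 0.0301), and Aifm2 with chromosome medians removed (−0.23, adjusted p = 0.0124).

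Other genes of these pathways were read from lists written for this work, which include members. The share of all genes tested that was called lower or higher was 22.9% or 22.1% with FEM1B siRNA in control-guide cells and 19.8% or 21.9% in knockout cells. It was 26.3% or 24.2% with knockout under control siRNA and 26.4% or 28.2% under FEM1B siRNA. Among 12 genes of selenoprotein synthesis, FEM1B siRNA in control-guide cells lowered 6, Sephs2 included, and raised 1, where 22.9% and 22.1% of all genes did so, with a median log2 fold change of −0.23. Pstk, the kinase that primes selenocysteyl-tRNA synthesis, fell by 0.68 ± 0.14 (adjusted p = 0.000518) and Sephs1, a relative of Sephs2, by 0.38 ± 0.06 (adjusted p = 5.35e-05). Lrp8, a receptor for selenoprotein P, rose by 0.63 ± 0.08 (adjusted p = 5.18e-06). In knockout cells 5 of the 12 fell, Secisbp2 included, against 19.8% of all genes, with a median of −0.19. Pstk fell by 0.63 ± 0.14 (adjusted p = 0.0013) and Sephs1 by 0.25 ± 0.06 (adjusted p = 0.00301). Knockout under control siRNA lowered 4 of 12, against 26.3% of all genes, among them Scly, the selenocysteine lyase, at −0.68 ± 0.13 (adjusted p = 0.000198), and Eefsec, the selenocysteine elongation factor, at −0.31 ± 0.08 (adjusted p = 0.00207). Scly was also lower under FEM1B siRNA (−0.54 ± 0.14, adjusted p = 0.00203), where 2 of 12 fell, against 26.4% of all genes. The other was Lrp8 (−0.53 ± 0.08, adjusted p = 2.62e-05).

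The selenoproteins, which share this machinery with GPX4, went both ways. Of 24 listed 18 were tested. FEM1B siRNA raised 6 and lowered 7 in control-guide cells, where 22.1% and 22.9% of all genes were called higher and lower. It raised 4 and lowered 5 in knockout cells, against 21.9% and 19.8%, with a median of 0.02 in each genotype. Selt (now Selenot), a selenoprotein of the endoplasmic reticulum, fell by 0.88 ± 0.05 (adjusted p = 3.46e-10) and 0.84 ± 0.06 (adjusted p = 9.72e-10). Knockout raised 4 and lowered 7 under control siRNA, against 24.2% and 26.3% of all genes. Under FEM1B siRNA it raised 5 and lowered 6, against 28.2% and 26.4%. Among those raised under control siRNA were Gpx1 (0.49 ± 0.07, adjusted p = 5.04e-06) and Ept1, now Selenoi (0.45 ± 0.05, adjusted p = 6.63e-07). Selk (now Selenok) was among those raised under FEM1B siRNA (0.59 ± 0.09, adjusted p = 1.39e-05). Under control siRNA Selk was also higher, at 27.2 ± 2.04 CPM in sgCTRL_siCTRL and 41.8 ± 0.482 CPM in sgBACH1_siCTRL. Sepp1 (now Selenop), the secreted selenium carrier, was at 92.5 ± 3.42 CPM in sgCTRL_siCTRL and 22.8 ± 0.698 CPM in sgBACH1_siCTRL, a log2 fold change of −2.02 ± 0.08 (adjusted p = 1.89e-14). Its siRNA effect differed between genotypes by 0.66 ± 0.10 (adjusted p = 0.00121), with 0.84 ± 0.08 in the knockout line (adjusted p = 8.97e-08). The thioredoxin reductase Txnrd1 was lower in knockout cells under FEM1B siRNA, at −0.39 ± 0.05 (adjusted p = 1.66e-06). Under control siRNA Txnrd1 was at 137 to 145 CPM in sgCTRL_siCTRL and 119 to 122 CPM in sgBACH1_siCTRL.

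All 14 listed CoQ synthesis genes were tested. FEM1B siRNA lowered 4 of them in control-guide cells, Coq2 included, and the other 10 were not called (median −0.12). Of all genes 22.9% were called lower and 45.0% in either direction there, so this count is near or below the background. Coq9, a lipid-binding partner of the ring hydroxylase, fell by 0.43 ± 0.08 (adjusted p = 0.000137) and Coq4 by 0.37 ± 0.11 (adjusted p = 0.00729). In knockout cells 2 rose and 2 fell (median −0.06), where 21.9% and 19.8% of all genes did so. Knockout under control siRNA lowered 5 and raised 1, against 26.3% and 24.2% of all genes, with Coq4 at −0.60 ± 0.11 (adjusted p = 0.000107). Under FEM1B siRNA knockout raised 3, Coq2 included, and lowered Coq5 (−0.34 ± 0.08, adjusted p = 0.00184), against 28.2% and 26.4% of all genes. Of all genes 50.5% and 54.6% were called in either direction in these 2 knockout comparisons. Coq2 was the 1 of the 14 whose siRNA effect was called as different between genotypes. Of 5 tested enzymes that reduce mitochondrial CoQ, DHODH included, FEM1B siRNA lowered Dhodh alone in each genotype. It raised Gpd2 in control-guide cells (0.26 ± 0.06, adjusted p = 0.00178) and Sqrdl (now Sqor), the sulfide oxidoreductase, in knockout cells (0.28 ± 0.06, adjusted p = 0.000788). The glycerol phosphate dehydrogenase Gpd2 was lower with knockout under each siRNA (−0.46 ± 0.06, adjusted p = 3.45e-06, and −0.64 ± 0.06, adjusted p = 3.63e-08). Prodh, proline dehydrogenase, named here after its values were seen, was higher with knockout under each siRNA (2.77 ± 0.30, adjusted p = 1.88e-07, and 2.66 ± 0.33, adjusted p = 1.07e-06), at low levels of 0.591 ± 0.241 CPM in sgCTRL_siCTRL and 4.03 ± 0.91 CPM in sgBACH1_siCTRL.

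Cad and Umps encode the enzymes before and after DHODH in pyrimidine synthesis. With FEM1B siRNA all 3 genes of this list, Dhodh included, were lower in control-guide cells, against 22.9% of all genes. In knockout cells 2 of the 3 were lower, against 19.8% of all genes. Cad fell by 0.60 ± 0.05 in control-guide cells (adjusted p = 9.21e-09) and by 0.91 ± 0.05 in the knockout line (adjusted p = 1.5e-10). Of the 3, Cad was the 1 whose siRNA effect was called as different between genotypes. Umps fell by 0.33 ± 0.07 (adjusted p = 0.00126) in control-guide cells and was at −0.18 ± 0.07 (adjusted p = 0.0556) in knockout cells. The isoprenoid genes that supply the tail of CoQ were raised or not called: 2 of 7 rose with FEM1B siRNA in control-guide cells and 5 of 7 in knockout cells, against 22.1% and 21.9% of all genes, with medians of 0.15 and 0.36. Hmgcs1, the HMG-CoA synthase, rose by 0.90 ± 0.07 (adjusted p = 7.09e-09) and 0.76 ± 0.07 (adjusted p = 8.38e-08).

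In BH4 metabolism 3 of 8 genes rose, Gch1 included, with FEM1B siRNA in control-guide cells, and 4 of 8 rose in knockout cells, against 22.1% and 21.9% of all genes. Pcbd1, which recycles BH4, rose by 0.45 ± 0.07 (adjusted p = 2.08e-05) and 0.67 ± 0.07 (adjusted p = 1.95e-07). Gchfr, which encodes the feedback regulator of GTP cyclohydrolase, was at 42.7 ± 1.61 CPM in sgCTRL_siCTRL and 22.3 ± 0.249 CPM in sgBACH1_siCTRL, a log2 fold change of −0.93 ± 0.09 (adjusted p = 2.45e-08), while Gch1 itself was not called. Of 6 vitamin K genes 4 fell and 1 rose with knockout under control siRNA, where 26.3% and 24.2% of all genes did so. The 4 include Aifm2 and Vkorc1l1, whose calls ended in the alternatives given above. Under FEM1B siRNA knockout lowered 2 and raised 2, where 26.4% and 28.2% of all genes were called lower and higher. FEM1B siRNA lowered 3 of the 6 in control-guide cells, against 22.9% of all genes, and all 6 were not called in knockout cells. With knockout, Vkorc1, the close relative of Vkorc1l1, rose by 0.42 ± 0.09 under control siRNA (adjusted p = 0.000643). Under FEM1B siRNA knockout raised Vkorc1 by 0.64 ± 0.09 (adjusted p = 7.96e-06), where Vkorc1l1 fell. Ggcx, also on the list, rose there by 0.40 ± 0.10 (adjusted p = 0.00157). Nmt1 encodes an N-myristoyltransferase, the enzyme class that attaches the membrane anchor of FSP1. It was lower in knockout cells under each siRNA (−0.24 ± 0.05, adjusted p = 0.00113, and −0.41 ± 0.05, adjusted p = 3.51e-06). Nmt2, of the same class, was not called with knockout under either siRNA. It was at 255 CPM in sgCTRL_siCTRL and 267 CPM in sgBACH1_siCTRL, and at 237 CPM in sgCTRL_siFEM1B and 230 CPM in sgBACH1_siFEM1B on average. Parl, the protease that cleaves STARD7, fell by 0.35 ± 0.09 with FEM1B siRNA in control-guide cells (adjusted p = 0.00413).

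**Figure D4:**
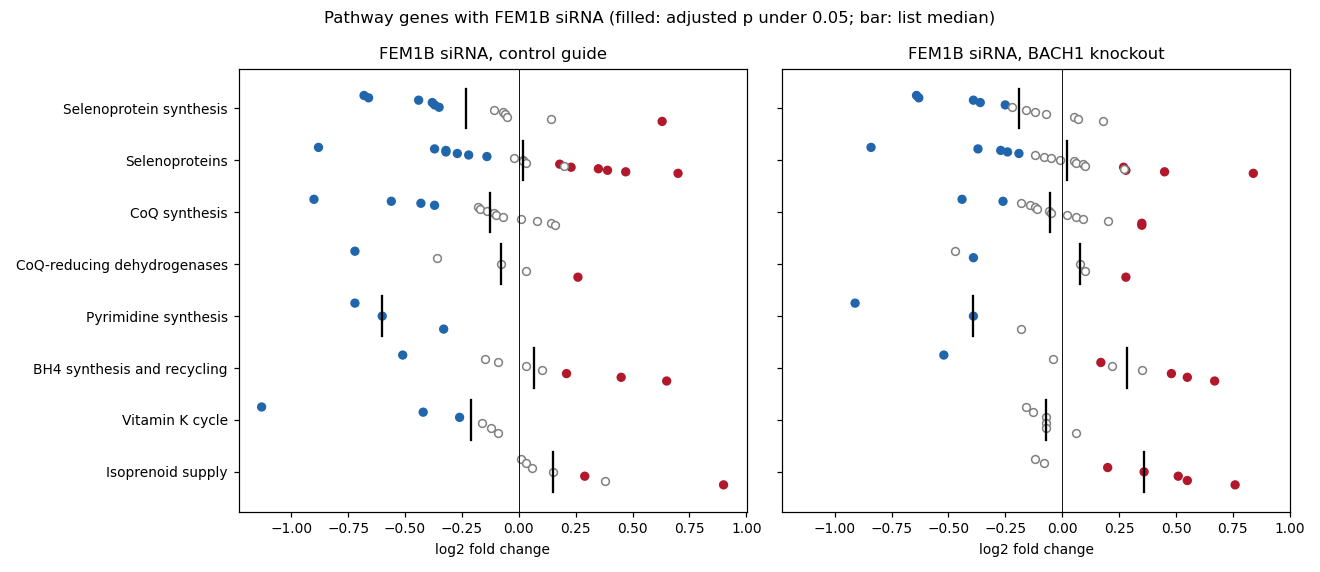
Each point is the log2 fold change of 1 gene with FEM1B siRNA, in control-guide cells on the left and BACH1 knockout cells on the right, grouped by pathway list with members included; filled points passed adjusted p under 0.05 and black bars are list medians. Selenoprotein synthesis has medians of −0.23 and −0.19, and isoprenoid supply 0.15 and 0.36.

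The genes whose log2 CPM followed each member most closely over the 12 libraries were taken among the 10000 tested genes whose mean log2 CPM reached 3. The libraries form 4 groups and share their depth, so these correlations mostly restate the order of group means and carry no test. For Coq2 they were Cops7a (Pearson r = 0.979), at 142, 148, 121 and 150 CPM in sgCTRL_siCTRL, sgBACH1_siCTRL, sgCTRL_siFEM1B and sgBACH1_siFEM1B, and Npepl1 (r = 0.973). For Dhodh they were Cd3eap (r = 0.986) and Csf1 (r = 0.977), which was at 163, 157, 97.3 and 115 CPM in the same groups. Sephs2 was followed by Bid (r = 0.982) and Tdp1 (r = 0.962), Stard7 by Lmtk2 (r = 0.968) and Vkorc1l1 by Exoc4 (r = 0.962). Gpx4 was followed by Ube2m (r = 0.946) and Hscb (r = 0.927). Aifm2 was followed by Ccdc93 (r = 0.912), Secisbp2 by Piezo1 (r = 0.907) and Gch1 by Fxyd5 (r = 0.938). The closest gene to Pdss2 was Clpx at r = 0.734, the lowest of these values.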

How the data were processed

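Stranded mRNA libraries were sequenced from 12 samples in 4 groups of 3. The deposited table holds raw gene counts made by the authors. Tools named in the submitters' processing notes, without roles, are featureCounts 1.6.4, Subread, DESeq2 1.26.0 and SAMtools 1.9, with mm10 as the build. Which annotation and strand option were used was not given in the sources used here. All 12 columns were used, and 6056 symbols had no count. Genes were kept by filterByExpr (minimum count 10; 13281 genes), scaled by TMM (0.989 to 1.01) and tested with edgeR 4.0.16 in R 4.3.3, two-sided, in 1 model with a mean per group (8 residual degrees of freedom). SEs are log2 fold changes, without sign, over the square root of F. The procedure was checked on simulated data. Replicate pairs differed by 2.54 to 14.2 in chi-square per degree of freedom, above sampling noise. Each library was treated as 1 sample, and this spread does not show how independent the replicates were. P-values set a difference between group means against the spread between these libraries, and they do not cover the spread between lines.

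The members and the pathway lists were chosen with earlier results of these data known. The rule for other genes took up to 3 called genes per list and comparison with the smallest p whose mean log2 CPM reached 3, and from these, genes whose calls held without any single library were preferred after their values were seen. Listed symbols absent from the table were matched through older names. Coordinates and promoters are from RefSeq (GRCm38.p6, the assembly of mm10), exon lengths and overlaps from GENCODE M21, and similar transcripts from blastn 2.17.0 (at least 90% identity over 200 bases). Alternatives were other scalings, the DESeq2 1.42.0 test, no filter, a replicate block, the groups compared alone, each library left out, and chromosome medians removed. Some genes of the pathway lists are not reported here by name.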

Additional observations from a re-analysis of the deposited data

Results flagged for a closer look

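The effect of FEM1B siRNA on Coq2 differed between the genotypes, by 0.65 on the log2 scale (knockout minus control-guide cells, adjusted p = 0.00815, edgeR), which is why it is listed here. Coq2 was lower in all 3 control-guide libraries with FEM1B siRNA than in all 3 with control siRNA, and the groups overlapped in knockout cells.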

How the results depend on the processing

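Over 70 values (10 members in 7 comparisons), 47 kept their side of the threshold in every alternative. Of 1320 recomputed values 1242 did so, 61 lost a call, 17 gained one, and no called value changed sign. Counts of members called that moved by over 1.5 times were 2 for knockout under control siRNA with chromosome medians removed (2 to 4 without single libraries) and 3 for knockout under FEM1B siRNA in a fit to the groups compared (3 to 6 without single libraries). Without single libraries they were 1 to 3 for FEM1B siRNA in knockout cells and 1 to 3 for the interaction. Over all genes the interaction called 807, of which 57.2% were higher (45.6% with DESeq2 size factors, 48.0% with chromosome medians removed), 1393 with no filter, 1129 with the DESeq2 test, and 297 to 1859 without single libraries, the highest without replicate 2 of sgBACH1_siFEM1B. It was 297 to 305 without replicate 1 or 3 of either knockout group, 386 without replicate 3 of sgCTRL_siCTRL and 396 without replicate 2 of sgCTRL_siFEM1B. The cause was not tested. No pairing of libraries by replicate number was seen, which does not show how replicates were handled. Same-numbered libraries correlated at −0.115 to 0.079 in their deviations and other-numbered libraries at −0.144 to 0.135. Of the 12 libraries 2 were closest to their own number. With the replicate block the interaction called 603 genes, 1 member among them, and knockout under FEM1B siRNA called 4 members. Gch1, at 50 to 123 counts per library, is the member most limited by depth.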
